A study of Mus musculus with 4 samples.

Results

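The mouse globin loci were examined for binding of Bach1, Bach2 and Mafk in M1 cells, a mouse myeloid leukemia cell line. The members were all called peaks whose summit lay in either of 2 mm9 windows. The first, on chromosome 7 from 110940000 to 111060000, spans the beta-globin genes and their locus control region, and the second, on chromosome 11 from 32080000 to 32210000, spans the alpha-globin genes and their upstream enhancers. Of 7017 peaks in the 3 deposited lists, 3 were members, 1 from each list, and all of them lay at 1 site in the beta-globin window. The alpha-globin window held 0 peaks of each factor. The members were chosen by the position of called summits, so both counts are descriptions.

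The data came from chromatin immunoprecipitation followed by sequencing (ChIP-seq), in which DNA bound by a protein is recovered with an antibody and sequenced. Unstimulated M1 cells without genetic change named in the labels were used for 4 libraries: 1 with an in-house Bach1 antibody (A1-6), 1 with an in-house Bach2 antibody (Bach2N2), 1 with a purchased antibody (c-16) against Mafk, which the labels list as NF-E2 p18, and 1 of input DNA. Each factor had 1 library, so no value below has a replicate check and no test between conditions was possible. Peaks numbered 3873 for Bach1, 1385 for Bach2 and 1759 for Mafk. The lists hold DNA positions and no expression, so neither globin RNA levels nor the myeloid identity of the cells could be checked.

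Adult hemoglobin is built from alpha-globin chains, encoded by Hba-a1 and Hba-a2, and beta-globin chains, encoded in the mouse by Hbb-b1 and Hbb-b2 or, in strains with the other haplotype, by Hbb-bs and Hbb-bt. Hbb-y and Hbb-bh1 are the beta-like genes of embryonic red cells. High expression of the beta-like genes in red cells depends on the locus control region, a group of enhancers upstream of Hbb-y, and that of the alpha-like genes on enhancers upstream of them, several inside introns of the neighbouring gene Nprl3. Some of these elements hold Maf recognition elements, DNA motifs built around the letters TGAGTCA. Small Maf proteins such as Mafk bind there either with p45 NF-E2, an activator, or with Bach1 or Bach2, which are repressors, and heme releases Bach1 from DNA.

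In the RefSeq gene table used here (GRCm38.p6) the beta-like genes follow each other as Hbb-bt, Hbb-bs, Hbb-bh2, Hbb-bh1 and Hbb-y, with the pseudogenes Gm15115 and Hbb-bh3 among them, between the olfactory receptor genes Olfr67 and Olfr66. The alpha cluster runs from Nprl3 through Hba-x, the embryonic zeta-like gene, Hba-a1, Hbq1b and Hba-a2 to Hbq1a. Snrnp25, Rhbdf1 and Mpg lie before it and Sh3pxd2b behind it, with 1 annotated RNA gene, Gm46275, in between. That table describes a later build than mm9. It was therefore used for names and order only, and the peaks below were not placed in an exon, intron or element of the locus control region.

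Promoter sequences from RefSeq (GRCm38.p6) are shown for Hba-a1, whose window held 0 peaks, and Hbb-y, the beta-like gene next to the locus control region. Each run gives the 250 bases before the annotated start. Capitals mark GATAA, the core of GATA factor motifs, and CACCC, the core of KLF factor motifs, on either strand. The third run is a stretch of Hbb-bs, 20 to 40 bases after its start, with the core TGAGTCA in capitals as it reads on the opposite strand.
Hba-a1 (chr11:32283422-32283671, plus strand, GRCm38.p6): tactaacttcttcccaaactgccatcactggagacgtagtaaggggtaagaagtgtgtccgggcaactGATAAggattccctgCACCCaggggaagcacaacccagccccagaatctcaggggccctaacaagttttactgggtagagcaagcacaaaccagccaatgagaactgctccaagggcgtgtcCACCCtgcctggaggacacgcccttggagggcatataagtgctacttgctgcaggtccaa
Hbb-y (chr7:103853208-103853457, minus strand, GRCm38.p6): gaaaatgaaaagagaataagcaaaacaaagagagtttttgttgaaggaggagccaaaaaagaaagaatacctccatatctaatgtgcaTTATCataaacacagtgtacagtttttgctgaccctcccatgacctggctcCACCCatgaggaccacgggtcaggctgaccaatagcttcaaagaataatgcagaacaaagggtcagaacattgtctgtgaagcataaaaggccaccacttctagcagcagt
Hbb-bs (chr7:103827889-103827909, minus strand, GRCm38.p6): gttgtgtTGACTCAcaacccc

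The promoter table held 9 of 12 globin genes looked for, among them 3 of the 6 genes that define the loci here (Hbb-y, Hba-a1 and Hba-a2). Each of its windows covers 300 bases, from 250 before to 50 after the start. The core TGAGTCA was found, on both strands searched, in 1 of the 9 globin windows, Hbb-bs, and in 5.20% of all 32851 windows. The full Maf recognition element of the TPA type, which contains this core, was in 0 of the 9 and in 0.00304% of all windows. GATAA was in 7 of the 9 and in 25.4% of all windows, and CACCC was in 6 of the 9 and in 57.5% of all windows. Both counts include Hba-a1 and Hba-a2, whose windows share an identical run of 297 bases, so the 9 windows are not separate sequences. A match is a description of letters and not a binding site, and enhancer sequence was not searched.

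All 3 factors had a peak at the same place in the beta-globin window. The Bach1 peak ran from 111009212 to 111010083 on chromosome 7 (mm9) with its summit at 111009594. The Bach2 peak ran from 111009261 to 111009883 with its summit at 111009590. The Mafk peak ran from 111009440 to 111009796 with its summit at 111009609. The site lay 69.6 kb from the window border at the lower coordinate and 50.4 kb from the other. No second peak of any factor was called elsewhere in the window.

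The Bach1 peak was the tallest and the longest of the 3. Its pileup, the number of overlapping fragments at the summit, was 338 (95% exact Poisson interval 303 to 376). The Bach2 pileup was 197 (170.45 to 226.5) and the Mafk pileup 76 (59.9 to 95.1). These intervals cover counting error only and are no test between the factors. They do not allow for the choice of the summit as the highest point of a peak. The depths of the libraries are unknown from these lists, and the antibodies recover DNA with unknown and unequal efficiency. The lengths were 872 bp for Bach1, 623 bp for Bach2 and 357 bp for Mafk.

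**Figure D1:**
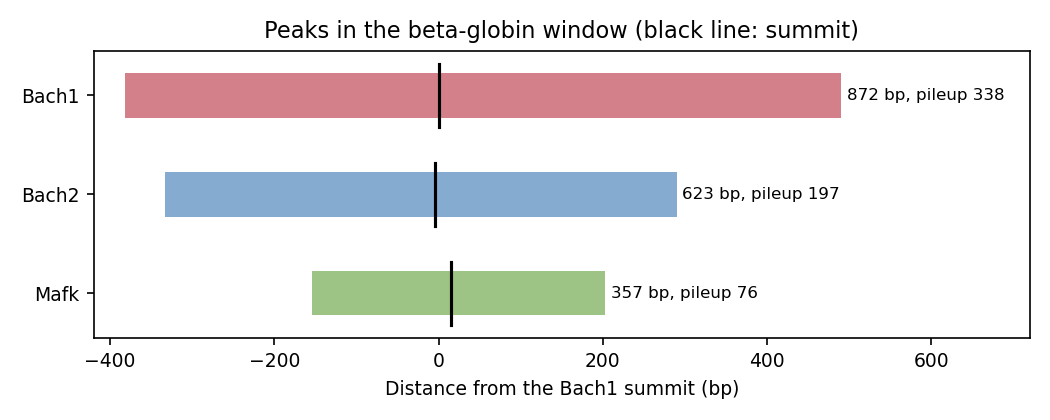
Extent of the Bach1, Bach2 and Mafk peaks in the beta-globin window, with distance from the Bach1 summit in bp on the horizontal axis, 1 bar per list and a black line at each summit. The Mafk bar (357 bp) lies inside the Bach2 bar (623 bp), which lies inside the Bach1 bar (872 bp), and the 3 summits fall within 19 bp.

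The 3 peaks were nested. The Bach1 peak reached 49 bp beyond the Bach2 peak on the lower side and 200 bp on the upper side, and the Bach2 peak reached 179 bp and 87 bp beyond the Mafk peak. The whole Mafk peak was therefore common to the 3 lists, and it covered 40.9% of the Bach1 peak and 57.3% of the Bach2 peak. The Bach2 peak covered 71.4% of the Bach1 peak. With a reciprocal overlap of 50% required, Bach1 and Mafk no longer paired, and the number of sites in the window with all 3 factors went from 1 to 0. The summits lay 4 bp apart for Bach1 and Bach2, 15 bp for Bach1 and Mafk and 19 bp for Bach2 and Mafk.

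Most Bach2 peaks shared their place with a Bach1 peak, and overlaps with Mafk were fewer. Of all Bach1 peaks, 30.3% shared at least 1 bp with a Bach2 peak and 10.8% with a Mafk peak. Of all Bach2 peaks, 85.2% shared with a Bach1 peak and 21.7% with a Mafk peak. Of all Mafk peaks, 23.9% shared with a Bach1 peak and 17.2% with a Bach2 peak. When all peaks were merged, 297 of 5410 regions (5.49%) held called peaks of the 3 factors, and the beta-globin site was 1 of them.

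Within its own list, the beta-globin peak stood near the top for Bach1 and Bach2 and lower for Mafk. Fold enrichment, the pileup over the local background of the control as given by the authors, was 42.95 for Bach1, rank 3 of 3873 peaks, between 43.3 and 42.4 for the peaks next to it. The highest value in that list was 45.3. For Bach2 it was 19.9, rank 4 of 1385, where the highest value was 24.4. For Mafk it was 7.67, rank 202 of 1759, where the highest was 17.7 and 11.5% of peaks were at this value or above. Relative to the median of its list the value was 9.23-fold for Bach1, 4.49-fold for Bach2 and 1.58-fold for Mafk.

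**Figure D2:**
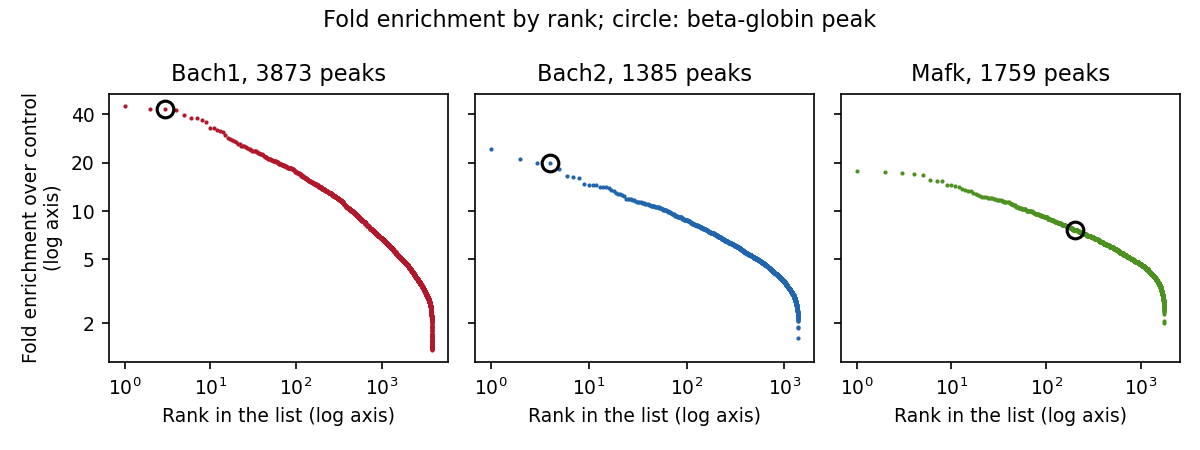
Fold enrichment over the control of every peak against its rank in the list, both on log axes, in 1 panel per factor, with a circle at the beta-globin peak. The circle sits at rank 3 for Bach1, rank 4 for Bach2 and rank 202 for Mafk.

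By pileup the same peaks ranked lower in the Bach lists, at 45 for Bach1, 55 for Bach2 and 241 for Mafk. The lists differ in length, and 1.16%, 4.19% and 14.3% of their peaks were at this pileup or above. A Poisson p recomputed from pileup and background gave ranks of 4, 9 and 168. By length the ranks were 94 for Bach1, 94 for Bach2 and 706 for Mafk, or 2.50, 1.795 and 1.08 times the median length of the list. In those lists 2.43%, 6.86% and 40.7% of peaks were at this length or above.

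The control background at the site was the same in the 3 lists only after scaling by a step inferred within each list. Recomputed from pileup and fold enrichment, it was 6.89 at the Bach1 summit, 8.97 at the Bach2 summit and 9.04 at the Mafk summit, each on the scale of its own library. In each list many backgrounds were whole multiples of a fixed step, taken as the worth of 1 control fragment after scaling. This held for 59.5% of Bach1, 68.1% of Bach2 and 45.7% of Mafk peaks. In these steps, the background was 10 control fragments at each of the 3 summits. Of 171 regions with all 3 factors, summits within 100 bp and whole numbers in each list (tolerance 0.001), 31 had the same number in the 3 lists and 77 were within 1 fragment. This was 1.65, 1.60 and 1.68 times the lowest background in the list for Bach1, Bach2 and Mafk, and 70.6%, 77.5% and 33.2% of the peaks in those lists had a background as high or higher. If the lists used 1 control, the steps put the Bach2 and Mafk libraries at 1.30 and 1.31 times the depth of the Bach1 library. A shared control was not tested, and the depths themselves are unknown from these lists.

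Over the 297 regions with all 3 factors, the beta-globin site ranked higher for the Bach factors than for Mafk. Its Bach1 pileup of 338 was rank 10, against a median of 135 (quartiles 91 to 205), and its Bach2 pileup of 197 was rank 38, against 86 (57 to 135). Its Mafk pileup of 76 was rank 93, against 58 (45 to 84). Some of the 297 regions had high and nearly equal pileups in the 3 lists, for example 336 for Bach1, 348 for Bach2 and 336 for Mafk. Such regions enter the medians and ranks given here and those of the pileup ratios below. Whether they are bound by the factors was not tested. In fold enrichment the site was rank 3 for Bach1, rank 4 for Bach2 and rank 21 for Mafk among these regions. The Bach1 and Bach2 ranks repeat those in the full lists, since the peaks above them there also lie in these regions.

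Against the 297 regions, the pileup of Mafk at this site was low relative to that of the Bach factors. All 297 regions hold a called Mafk peak. Regions with Bach peaks and no called Mafk peak have no ratio and are left out of these ranks. Of all Bach2 peaks, 21.7% shared at least 1 bp with a Mafk peak. The Mafk pileup of 76 was itself above the median of 58. Among the regions with the highest Bach1 fold enrichment, the Bach1 to Mafk ratio was close to the median. The ratio of Bach1 to Mafk pileup was 4.45, rank 12 of 297, where the median was 2.31 (quartiles 1.35 to 3.17). The ratio of Bach2 to Mafk was 2.59, rank 26, with a median of 1.35 (1.02 to 1.92), and that of Bach1 to Bach2 was 1.72, rank 113, with a median of 1.51 (1.13 to 1.96). A constant difference in depth cancels in these ranks. Among the 10 regions with the highest Bach1 fold enrichment, which include this site, the ratio of Bach1 to Mafk ran from 2.20 to 5.67 with a median of 4.31, where the value of 4.45 was rank 4 of 10. The ratio of Bach2 to Mafk ran there from 0.961 to 2.64 with a median of 1.70, and the beta-globin site was rank 2 of 10.

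**Figure D3:**
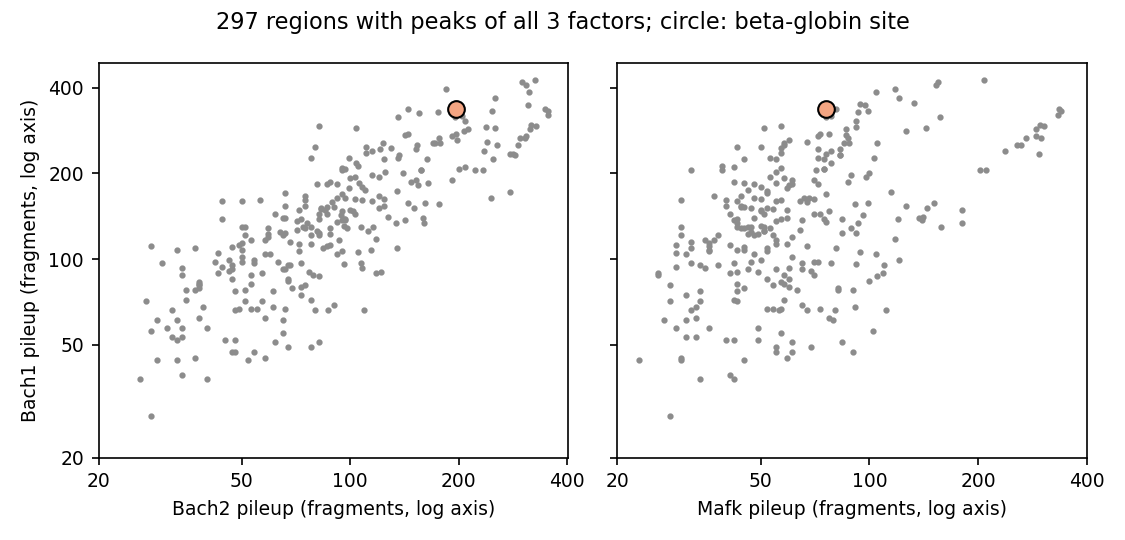
Bach1 pileup against Bach2 pileup (left) and Mafk pileup (right), in fragments on log axes, for the 297 regions with peaks of all 3 factors, 1 point per region and a circle at the beta-globin site. The circle (338 for Bach1, 197 for Bach2, 76 for Mafk) lies within the cloud on the left and near its upper edge on the right.

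The arrangement of the peaks was shared by many regions. Bach1 pileup exceeded Bach2 pileup, which exceeded Mafk pileup, at 187 of the 297 regions (63.0%), and a Mafk peak inside a Bach2 peak inside a Bach1 peak was found at 169 (56.9%). The 3 summits spanned 19 bp at the beta-globin site and a median of 31 bp over the 297 regions (quartiles 17 to 52). The ratio of Bach1 to Bach2 length was 1.40 at the site and also 1.40 at the median.

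No other peak of any list lay closer than 243 kb to the site. The nearest other Bach1 peak was at that distance, at 111252580 to 111252842, with a pileup of 42 and a fold enrichment of 3.05, and a Mafk peak with a pileup of 69 and a fold enrichment of 4.53 overlapped it, with no Bach2 peak. This pair lay 193 kb outside the upper border of the window. On the lower side the nearest peaks were 1835 kb away for Bach1, 1895 kb for Bach2 and 1723 kb for Mafk, and on the upper side the nearest Bach2 peak was 3944 kb away. A nearest neighbour in the same list at least as far away as here (243 kb for Bach1 and Mafk, 1895 kb for Bach2) was found for 27.1% of Bach1 peaks, 10.3% of Bach2 peaks and 57.1% of Mafk peaks.

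Windows of this size with a peak were uncommon for each factor. When chromosomes were divided into tiles of 120 kb, 13.6% of 21928 tiles held a Bach1 peak, 5.39% a Bach2 peak and 7.42% a Mafk peak, and 1.72% held peaks of all 3. The window was placed on the globin genes with its peaks known, so these shares are the background and not a test of it.

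The alpha-globin window, with Hba-a1 and Hba-a2, had 0 Bach1, 0 Bach2 and 0 Mafk peaks. The nearest was a Bach1 peak at 31982795 to 31983021, 97.1 kb outside the lower border, with a pileup of 23 and a fold enrichment of 4.63. The nearest Bach2 peak, at 31724712 to 31725031, lay 355 kb outside that border with a pileup of 49 and a fold enrichment of 5.01. The nearest Mafk peak was 1571 kb outside it, with a pileup of 33 and a fold enrichment of 5.32. On the upper side, the nearest peaks were 1613, 1724 and 2215 kb outside for Bach1, Bach2 and Mafk.

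**Figure D4:**
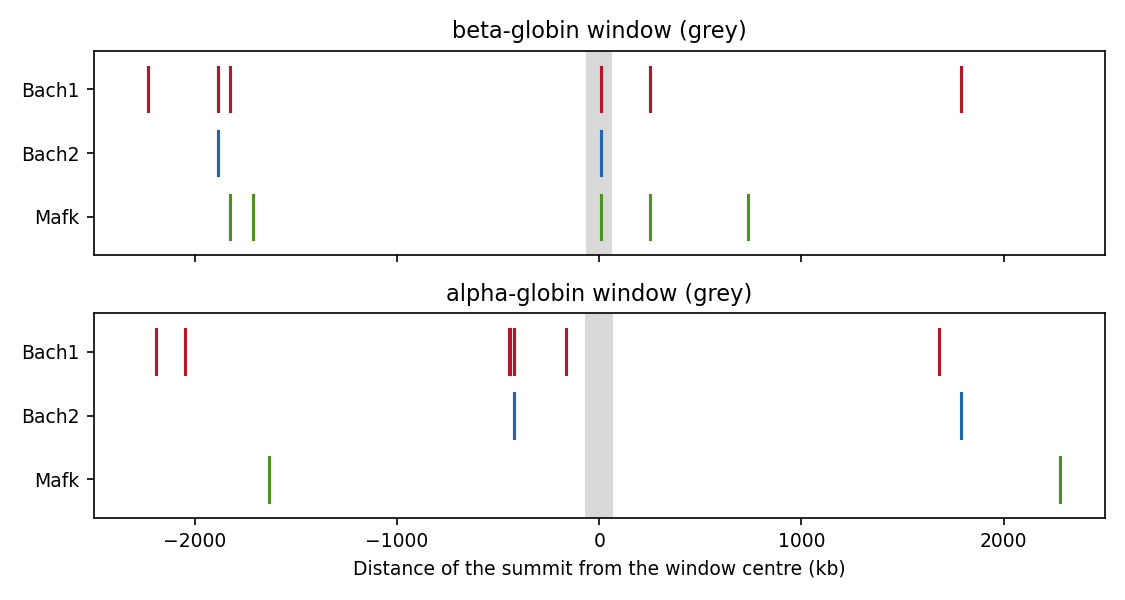
Summits of Bach1, Bach2 and Mafk peaks within 2500 kb of the centre of each globin window (grey), with distance from the centre in kb on the horizontal axis and 1 line per peak. The beta-globin window holds 1 peak of each factor at the same place, and the alpha-globin window holds 0.

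A stretch without peaks is the usual state in these lists. Of 20243 tiles of 130 kb, the length of the alpha-globin window, 85.5% held no Bach1 peak, 94.2% no Bach2 peak, 92.1% no Mafk peak and 80.3% no peak of any factor. The stretches between the nearest peaks on either side were 1840 kb for Bach1, 2209 kb for Bach2 and 3916 kb for Mafk. Stretches at least this long made up 52.9%, 74.2% and 38.1% of the length between peaks in the 3 lists. The absence of a peak over Hba-a1 and Hba-a2 was thus at the background share and is no result particular to these genes.

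The peak lists give no signal where no peak was called, so no upper limit for the alpha-globin window could be computed. Where the background was at its lowest, peaks with a pileup as small as 17 for Bach1, 26 for Bach2 and 20 for Mafk were in the lists. Over Hba-a1 and Hba-a2 the count of reads also depends on how repeated sequence was handled, which is not given in the sources used here. The 300-base promoter windows of these genes share an identical run of 297 bases in GRCm38.p6, longer than the 51-base reads, so most reads from inside it match both copies. Hbq1a and Hbq1b share a run of 105 bases, whereas Hbb-bs and Hbb-bt share at most 14. The part of this repeat in the absence of a peak was not tested.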

How the data were processed

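Per the labels, 1 ChIP-seq library each for Bach1, Bach2 and Mafk and 1 input library were made from M1 cells and sequenced as paired reads of 51 bases. CASAVA 1.8, BWA 0.7.10 and MACS2 2.1.0, with the build mm9, are named per the submitters' processing notes. Their settings are not given in the sources used here, and the input library itself was not analysed here. Per the file headers, the deposited lists give for each peak its position, length, summit, pileup and fold enrichment. As a signal, the deposited pileup was a whole number of fragments at every peak. The deposited fold enrichment is a ratio over the local control and was used within a list only. Peak numbers ran without a break in each list (0 breaks), and lengths equalled end minus start plus 1. The names carry a q threshold of 0.01, and read depth is unknown from these lists.

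The members and lists were chosen with earlier results of these data known. All peaks in either window were named, with the nearest peaks outside. Background was computed as (pileup + 1) / fold enrichment - 1, and the step by search for whole multiples (tolerance 0.001). The search was tested on simulated data built mostly from whole multiples. That test could not show that a step is 1 control fragment. Peaks sharing at least 1 bp were merged. Where a merged region held several peaks of a factor, the one with the highest fold enrichment was used. Tiles ran from the first base of each nuclear chromosome to the last peak. Python 3.11.15, pandas 2.3.3 and scipy 1.17.1 were used. Alternatives were a window rule of any base, windows wider by 50 kb, a recomputed -log10 p of at least 10, a reciprocal overlap of 50%, summits within 100 bp, other measures of rank and no pseudocount. Planned searches of peak sequence and of genes near peaks were not run, since they need mm9 sequence and annotation.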

Additional observations from a re-analysis of the deposited data

How the results depend on the processing

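Of 36 alternative values, 32 stayed within 1.5 times the reported one, or at 0 where it was 0. The number of peaks per factor was 1 in the beta-globin window and 0 in the alpha-globin window with any base in the window counted, with windows wider by 50 kb on each side and with a recomputed -log10 p of at least 10. The p threshold can only remove peaks, so it could not change a count of 0. The nearest summit outside any border was 97.1 kb away, so widening by 50 kb could add none. Some of the 32 values could thus not have moved. The site with all 3 factors was also found with summits within 100 bp, but with a reciprocal overlap of 50% the count was 0, because the Mafk peak covers 40.9% of the Bach1 peak. Ranking by pileup moved the Bach1 peak from rank 3 to 45 and the Bach2 peak from rank 4 to 55, and ranking by recomputed p moved the Bach2 peak to rank 9. No paired analysis was possible because there was 1 library per factor, which also leaves no replicate to omit. Depth limits the absence of peaks, since a site under the threshold is not listed.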
